A study of Homo sapiens with 6 samples.

Results

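The genes described here are the 10 members of the MYC, MAX and MXD transcription factor network that were chosen by symbol from a table of 30403 genes: MYC, MAX, MXD1, MXD3, MXD4, MXI1, MNT, MGA, MLX and MLXIP. All 10 passed the filter on low counts, so that each is among the 16040 genes tested. They were measured in HK-2 cells, an immortalised line derived from human proximal tubule epithelium. The cells were transfected with a plasmid for a short hairpin RNA against PARP1 (shPARP1, labelled as PARP1 knockdown) or with a control plasmid (shCtrl, labelled as control), and polyadenylated RNA was sequenced from 3 libraries per group taken 48 h after transfection. The product of PARP1 adds poly(ADP-ribose) chains to nuclear proteins, above all at DNA breaks. The groups share the line, the medium with serum and the lipid transfection reagent, and the knockdown was transient. Nothing in the labels says whether the 3 libraries of a group came from separate cultures, so the p-values rest on a spread among libraries that could be technical alone.

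MYC is a basic helix-loop-helix leucine zipper protein that binds DNA as a dimer with MAX, usually at the E-box sequence, and activates genes of growth, ribosome production and metabolism. MXD1, MXI1, MXD3, MXD4 and MNT also pair with MAX, occupy the same kind of site and recruit the SIN3 histone deacetylase corepressor, so that they act against MYC. MGA is a very large MAX partner found in a variant Polycomb complex. MLX is a MAX-like protein whose partners include the glucose-responsive factors MondoA, encoded by MLXIP, and ChREBP, encoded by MLXIPL. MYC mRNA and protein are both short-lived, and the gene responds to growth factors in many epithelia.

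The control libraries held 24429683 to 26269194 counts and the deeper knockdown libraries 29387853 to 32809303. A count of 3 was worth 0.0914 to 0.123 CPM (counts per 1e6 of the library, TMM-scaled where a level is given). PARP1 itself went from 261 ± 2.37 to 27.3 ± 1.37 CPM (SD, n = 3 per group). Mitochondrial transcripts took 12.0% to 13.1% of counts in shCtrl and 9.94% to 10.8% in shPARP1, and the part of this difference in the results below was not tested. Of 15 proximal tubule markers, 11 were tested, 6 were called lower and 3 higher, beside 28.5% lower and 27.3% higher over all genes tested. The summed level of the 15 markers was 2253 to 2298 CPM in shCtrl and 2006 to 2053 CPM in shPARP1. PAX8 and CDH6 were present, but LRP2 (megalin), a defining receptor of the mature tubule, had at most 1 count in a library, CUBN at most 13 and ANPEP at most 11. The 3 endothelial markers with values summed to at most 0.424 CPM in any library, and the T cell marker CD3E had at most 2 counts. Leukocyte markers summed to between 655 and 668 CPM in shCtrl and between 348 and 359 CPM in shPARP1, nearly all from CD74, and fibroblast markers to between 19.8 and 22.8 CPM and between 10.8 and 11.8 CPM.

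MYC was the member with the largest change after PARP1 knockdown, and most of the other members were slightly lower. Of the 10 members, 7 were called lower and 0 higher at an adjusted p under 0.05 in edgeR's quasi-likelihood test. Over all genes tested, 28.5% were called lower, 27.3% higher and 55.7% either way. The median log2 fold change was -0.22 over the members and -0.01 over all genes tested, while the median absolute change was 0.22 over the members and 0.34 over all genes. The groups did not overlap in CPM for 7 of the 10 members, against 60.1% of all genes tested. As counted, the members thus leaned downward, by less than the typical size of change in these libraries. With the correction for exon length and GC content described below, 3 members were called lower and 1 higher. Over all genes tested 27.1% were then lower and 29.2% higher, and the median over the members was -0.07.

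**Figure D1:**
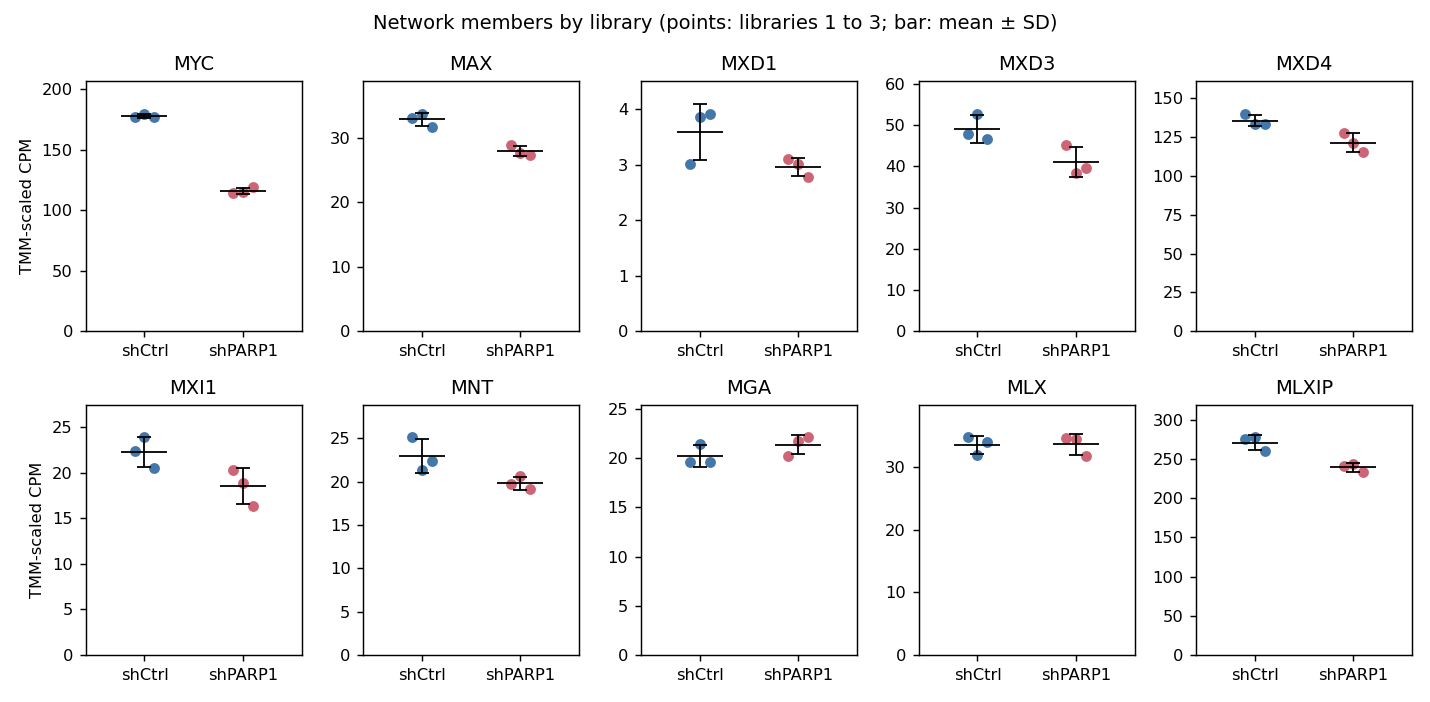
TMM-scaled CPM of the 10 network members in each library (points), with mean and SD (bars), for 3 shCtrl and 3 shPARP1 libraries; each panel has its own vertical axis starting at 0. MYC shows the widest gap, from 178 to 116 CPM, and the groups overlap for MXD1, MGA and MLX.

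MYC (ENSG00000136997, chromosome 8, plus strand) had 177, 179.7 and 177 CPM in shCtrl replicates 1 to 3 and 115, 115 and 119 CPM in shPARP1 replicates 1 to 3. The libraries of a group lay close together and the groups were far apart. The mean went from 178 ± 1.70 to 116 ± 2.38 CPM (SD, n = 3), so that shPARP1 held 65.3% of the control level, a log2 fold change of -0.62 (SE 0.04, 95% interval -0.69 to -0.54, edgeR quasi-likelihood adjusted p = 9.4e-21). Of all genes tested, 77.3% had a smaller absolute change and 12.9% a lower log2 fold change. In bulk RNA such as this, fewer cells that express a gene and less RNA of it per cell cannot be told apart. The MYC paralog MYCL was scarce, with 1.39 to 2.11 CPM in shCtrl and 1.11 to 1.78 CPM in shPARP1. Its groups overlapped, its log2 fold change was -0.21 with a 95% interval of -0.70 to 0.27, and it was not called (edgeR adjusted p = 0.48). MYCN was not analysed here.

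MAX, the partner that MYC, the MXD proteins, MNT and MGA have in common (chromosome 14, 65006174 to 65102695 on GRCh38, minus strand), had 33.2, 33.8 and 31.8 CPM in shCtrl and 28.9, 27.7 and 27.4 CPM in shPARP1. All 3 knockdown libraries lay below all controls. MAX fell by 0.23 on the log2 scale (SE 0.07, 95% interval -0.36 to -0.10, edgeR adjusted p = 0.0022), an interval that does not reach that of MYC.

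Of the 4 MXD-type repressors, 3 were called lower as counted. MXD4 (chromosome 4, 2247432 to 2262294, minus strand), the most abundant of them, had 140.2, 133 and 134 CPM in shCtrl and 128, 121 and 116 CPM in shPARP1. The groups were separate by a small margin, and MXD4 fell by 0.16 on the log2 scale (SE 0.04, edgeR adjusted p = 0.00080). MXD3, whose product is linked to proliferating cells, had 47.8, 52.8 and 46.6 CPM in shCtrl and 45.1, 38.5 and 39.5 CPM in shPARP1. Its lowest control and highest knockdown library were close to each other, and it fell by 0.26 (SE 0.06, edgeR adjusted p = 0.00024). MXI1 had 22.4, 23.9 and 20.5 CPM in shCtrl and 20.3, 18.9 and 16.4 CPM in shPARP1. Here too the groups nearly touched, with a fall of 0.27 (SE 0.08, edgeR adjusted p = 0.0050). MXI1 lost its call without shPARP1 replicate 3, with a log2 fold change of -0.18 (edgeR adjusted p = 0.075). With a correction of each library for exon length and GC content, MXD4 was at -0.01 (edgeR adjusted p = 0.87) and MXD3 at -0.11 (adjusted p = 0.062). On FPKM values, limma called neither MXD4 (adjusted p = 0.052 on log2(FPKM + 1)) nor MXI1 (0.074). MXD1, which is known for its rise during differentiation, was scarce, with 3.01, 3.85 and 3.92 CPM in shCtrl and 3.10, 3.01 and 2.79 CPM in shPARP1. Its groups overlapped, and its log2 fold change of -0.28 had a 95% interval of -0.62 to 0.06 (edgeR adjusted p = 0.16), which holds no change as well as falls larger than those of the called MXD genes, and which overlaps the interval of MYC.

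MNT, the broadly expressed MAX partner that represses MYC targets (chromosome 17, 2384060 to 2401118, minus strand), had 25.1, 21.4 and 22.4 CPM in shCtrl and 19.7, 20.6 and 19.1 CPM in shPARP1. The gap between the groups was under 1 CPM, and the log2 fold change was -0.21 (SE 0.08, edgeR adjusted p = 0.017). The call rested on particular libraries: without shCtrl replicate 1 the log2 fold change was -0.15 (edgeR adjusted p = 0.12), and without shPARP1 replicate 3 it was -0.19 (edgeR adjusted p = 0.069). MGA (chromosome 15, 41621224 to 41773081, plus strand) had 19.6, 21.5 and 19.6 CPM in shCtrl and 20.3, 21.8 and 22.1 CPM in shPARP1. Its groups overlapped and it was not called, with a log2 fold change of 0.08 and a 95% interval of -0.08 to 0.23 (edgeR adjusted p = 0.41).

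In the MLX arm, the level of MLX did not separate the groups. MLX (chromosome 17, 42567068 to 42573239, plus strand) had 34.7, 31.9 and 34.0 CPM in shCtrl and 34.6, 34.5 and 31.7 CPM in shPARP1. The groups overlapped, and the log2 fold change was 0.00 with a 95% interval of -0.13 to 0.13 (edgeR adjusted p = 0.98). MLXIP (chromosome 12, 122078722 to 122147347, plus strand), which encodes MondoA, had the most counts of all members, with 275, 278 and 260.2 CPM in shCtrl and 241, 244 and 233 CPM in shPARP1. Each knockdown library was below each control, and MLXIP fell by 0.18 on the log2 scale as counted (SE 0.04, edgeR adjusted p = 1.8e-05). With the exon length and GC correction it was at 0.03 and not called (edgeR adjusted p = 0.42). MLXIPL, which encodes ChREBP and is no member of the 10, was scarce, with 25, 29 and 31 counts in shCtrl and 12, 13 and 12 counts in shPARP1. In spite of deeper knockdown libraries it fell from 1.12 ± 0.074 to 0.396 ± 0.029 CPM (SD, n = 3), a log2 fold change of -1.49 (SE 0.36, edgeR adjusted p = 0.00036).

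Levels of different genes can be compared only per length, for which the authors' FPKM values (fragments scaled to gene length and library size) were used. In shCtrl, MYC was highest at 51.4 ± 1.17 FPKM, followed by MXD4 at 29.1 ± 0.542, MLXIP at 25.0 ± 1.02, MXD3 at 12.9 ± 1.03, MLX at 11.2 ± 0.332, MAX at 6.96 ± 0.276, MXI1 at 4.77 ± 0.401, MNT at 3.99 ± 0.284, MGA at 1.16 ± 0.078 and MXD1 at 0.553 ± 0.081 FPKM (SD, n = 3). No neighbours in this order overlapped over the 3 control libraries. In shPARP1, MYC remained highest at 34.6 ± 0.777 FPKM, MXD4 followed at 26.8 ± 1.27, and MLX and MXD3 overlapped, as did MXI1 and MNT.

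**Figure D2:**
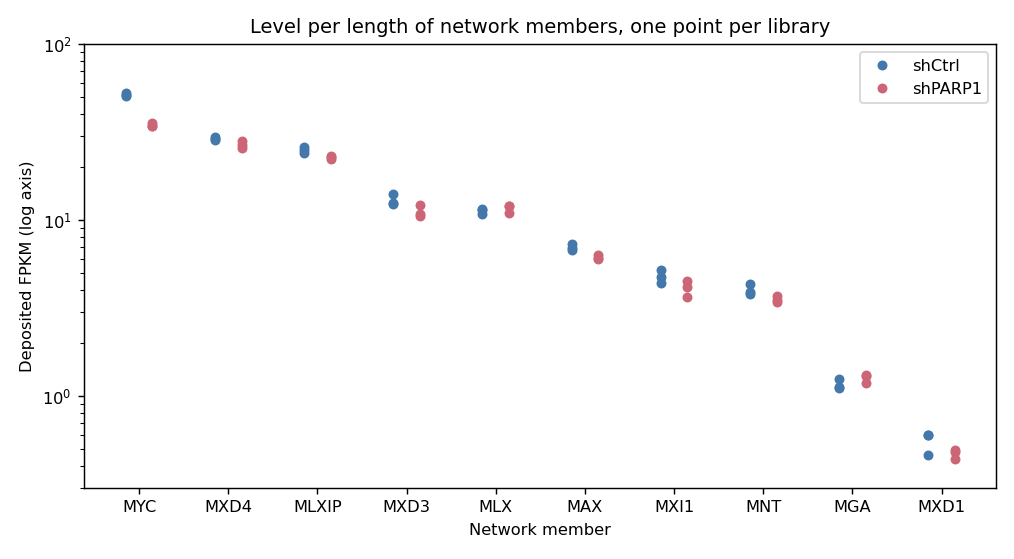
Deposited FPKM of the 10 members (log axis), 1 point per library, ordered by the shCtrl mean. MYC is highest and MXD1 lowest in both groups, and the distance between MYC and MXD4 is smaller in shPARP1.

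The level of MYC relative to MAX and to the MXD genes was lower in every shPARP1 library than in any control. The ratio of MYC to MAX was 7.27 to 7.63 in shCtrl and 5.41 to 5.92 in shPARP1. The ratio of MYC to the sum of MXD1, MXD3, MXD4 and MXI1 was 1.07 to 1.12 in shCtrl and 0.752 to 0.879 in shPARP1, and with MNT and MGA added to the sum it was 0.957 to 1.01 and 0.681 to 0.787. These are ratios of FPKM values within a library, given as a description without a test. None of the 3 ratios overlapped between the groups, and the MXD sum itself was 45.8 to 48.9 FPKM in shCtrl and 40.4 to 45.3 FPKM in shPARP1. MXD4 made up 59.3% to 62.7% of that sum in shCtrl and 62.0% to 63.9% in shPARP1.

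The calls of 4 members ended with a correction for exon length and GC content, whereas those of MYC, MAX and MXI1 did not. In these libraries log2 fold changes followed exon length. With the tested genes in 4 equal classes, the shortest class, with exons of up to 2623 bases in all, had a median of 0.17, and the longest, with 7015 bases or more, had a median of -0.12, with 39.1% called lower and 19.7% higher. MGA, MLXIP, MNT and MXD4 belong to this longest class, and none of the members to the shortest. MNT, MXD3 and MXD4 belong to the class of highest GC content. After correction of each library for exon length and GC content, MYC had a log2 fold change of -0.68 (edgeR adjusted p = 1.1e-29), MXI1 -0.20 (0.030) and MAX -0.16 (0.023). The calls of MXD3 (-0.11, edgeR adjusted p = 0.062), MXD4 (-0.01, adjusted p = 0.87), MNT (-0.03, adjusted p = 0.71) and MLXIP (0.03, adjusted p = 0.42) ended, and the sign of MLXIP turned. MGA was called higher, by 0.24 (SE 0.07, edgeR adjusted p = 0.0047). The median over the members was then -0.07, with 3 called lower and 1 higher, beside 27.1% lower and 29.2% higher over all genes tested with this correction, so that the share of lower members was near that of all genes. In corrections chosen after seeing the data, with exon length alone, MXD4 (-0.07, edgeR adjusted p = 0.19), MNT (-0.09, adjusted p = 0.31) and MLXIP (-0.01, adjusted p = 0.82) lost their calls and MXD3 did not (-0.19, adjusted p = 0.0061). With GC content alone, 7 members were called lower and 0 higher, beside 4427 lower and 4741 higher among all 16040 genes tested. With exon length alone, 4307 of all genes tested were called lower and 4575 higher.

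**Figure D3:**
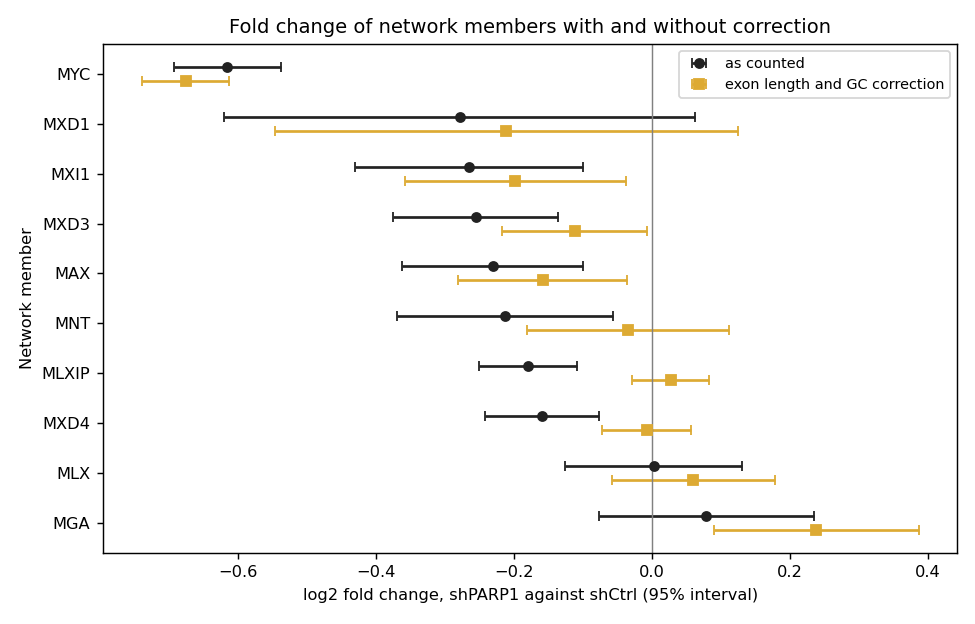
Log2 fold changes of the 10 members, shPARP1 against shCtrl, with 95% intervals, as counted (circles) and after correction for exon length and GC content (squares). MYC is lowest at -0.62 and -0.68, MXD4, MNT and MLXIP move to near 0, and MGA moves to 0.24.

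The members' own start sites were searched for the canonical E-box letters CACGTG, which read the same on both strands, in windows of 250 bases before to 50 bases after each start in RefSeq (GRCh38.p14). Of the 10 members, 9 had windows, 14 in all. MXD4, MNT and MLX each held a single match, and the stretches are shown because MYC-MAX, MXD-MAX, MNT-MAX and MLX dimers are known to bind these letters. They are 30 bases each, 5′ to 3′ on the gene's strand, with the E-box in capitals.
MXD4: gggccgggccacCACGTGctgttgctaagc
MNT: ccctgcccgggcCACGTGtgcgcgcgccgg
MLX: gcgggcgcgggtCACGTGggcacgccaccc
The MXD4 match begins 238 bases before the start site (chr4:2262330-2262359 for the stretch, minus strand), the MNT match 193 bases before it (chr17:2401236-2401265, minus strand) and the MLX match 50 bases before it (chr17:42567038-42567067, plus strand). The flanks differ among the 3 genes. The letters occur in 7.26% of all 35116 windows and in any window of 12.7% of the tested genes that have one. Of those 3 members, MXD4 and MNT were called lower and MLX was not called. Among 1324 tested genes with the letters, 31.5% were called higher and 32.3% lower, and among 9065 without them 29.9% and 31.3%. A match is a description of the sequence and not evidence of binding.

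Known targets of the network were counted in lists drawn from general knowledge, with earlier results of these data known. None of the lists is therefore independent evidence of its direction. Genes that MYC is known to induce were mostly higher in shPARP1, although MYC itself was lower. Of 50 such genes tested, 40 were called higher and 6 lower, with a median log2 fold change of 0.47, beside 27.3% higher, 28.5% lower and a median of -0.01 over all genes tested. Many of the 50 serve ribosome production, such as NOLC1, PES1, BOP1 and NOP56. Whether the rest of the list moved apart from those genes was not tested. NOLC1, a nucleolar chaperone of small nucleolar RNPs, had 42.0, 40.4 and 41.4 CPM in shCtrl and 108, 114 and 109 CPM in shPARP1. Its knockdown libraries all lay far above the controls (log2 fold change 1.42, SE 0.05). The translation initiation helicase gene EIF4A1 went from 49.4 ± 2.02 to 112 ± 1.19 CPM (SD, n = 3; log2 fold change 1.19). The spermidine synthase gene SRM went from 173 ± 1.97 to 366 ± 14.6 CPM (SD, n = 3; log2 fold change 1.08), and the nucleoside diphosphate kinase gene NME1 from 163 ± 5.19 to 321 ± 6.38 CPM (SD, n = 3; log2 fold change 0.98). ODC1, the rate-limiting enzyme of polyamine synthesis and a classical MYC target, rose by 0.89 on the log2 scale. It had 65.0, 61.7 and 59.8 CPM in shCtrl and 118, 112 and 115 CPM in shPARP1. The 6 lower genes were TFB2M (-0.39), MCM4 (-0.30), WDR12 (-0.28), CAD (-0.17), LDHA (-0.12) and SHMT2 (-0.08), and the nucleolin gene NCL was not called (0.04). Several of these genes, such as NPM1, PTMA and HSPE1, have processed pseudogenes that can share reads, so their counts are uncertain. The list's median exon length was 4167 bases, against 4491 for all genes tested. After the length and GC correction its median log2 fold change was 0.48. With this correction 41 were called higher and 4 lower, beside 29.2% and 27.1% over all genes tested.

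Genes that MYC is known to repress went the other way. Of 22 such genes, 20 were tested, 15 were called lower and 1 higher, with a median log2 fold change of -0.55, beside 28.5% lower and 27.3% higher over all genes tested. The cyclin-dependent kinase inhibitor gene CDKN1C had 268, 277 and 271 CPM in shCtrl and 101, 92.6 and 88.6 CPM in shPARP1. Every knockdown library lay far below every control. CDKN1C fell by 1.53 on the log2 scale (SE 0.04). The matrix genes THBS1 and TIMP2 fell by 1.34 and 0.91, and the integrin gene ITGB4 fell from 98.9 ± 2.23 to 52.1 ± 2.47 CPM (SD, n = 3; log2 fold change -0.92). The related inhibitor genes CDKN1B (-0.71) and CDKN1A (-0.44) also fell, and KLF6 (0.22) was the gene that rose. CDKN1A, GADD45B, THBS1 and TIMP2 were already known from these data when the list was drawn up, so the list is not independent evidence of its direction. Without those 4 genes, 11 of 16 were called lower and 1 higher, with a median of -0.50. After the length and GC correction the median over the list was -0.50, with 14 lower and 2 higher. Over all genes tested 27.1% were then called lower and 29.2% higher.

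Targets of the MondoA-MLX dimer were mostly lower in shPARP1. Of 11 genes tested, 7 were called lower and 0 higher, with a median log2 fold change of -0.37, beside the same 28.5% and 27.3% over all genes. TXNIP, the thioredoxin-interacting protein that restrains glucose uptake, had 152, 149 and 146 CPM in shCtrl and 86.6, 81.5 and 85.8 CPM in shPARP1. The groups were far apart, and TXNIP, which is also in the list of MYC-repressed genes, fell by 0.81 on the log2 scale (SE 0.04). The arrestin-domain gene ARRDC3 (-0.81), the phosphofructokinase-2 gene PFKFB3 (-0.49) and the factor gene KLF10 (-0.51) fell as well. ARRDC4, the other classical MondoA target, was scarce at 1.32 ± 0.028 CPM in shCtrl and 1.46 ± 0.699 CPM in shPARP1 (SD, n = 3) and was not called (log2 fold change 0.16, SE 0.28). After the length and GC correction 7 of the 11 were called lower, beside 27.1% over all genes tested, and the median was -0.38.

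**Figure D4:**
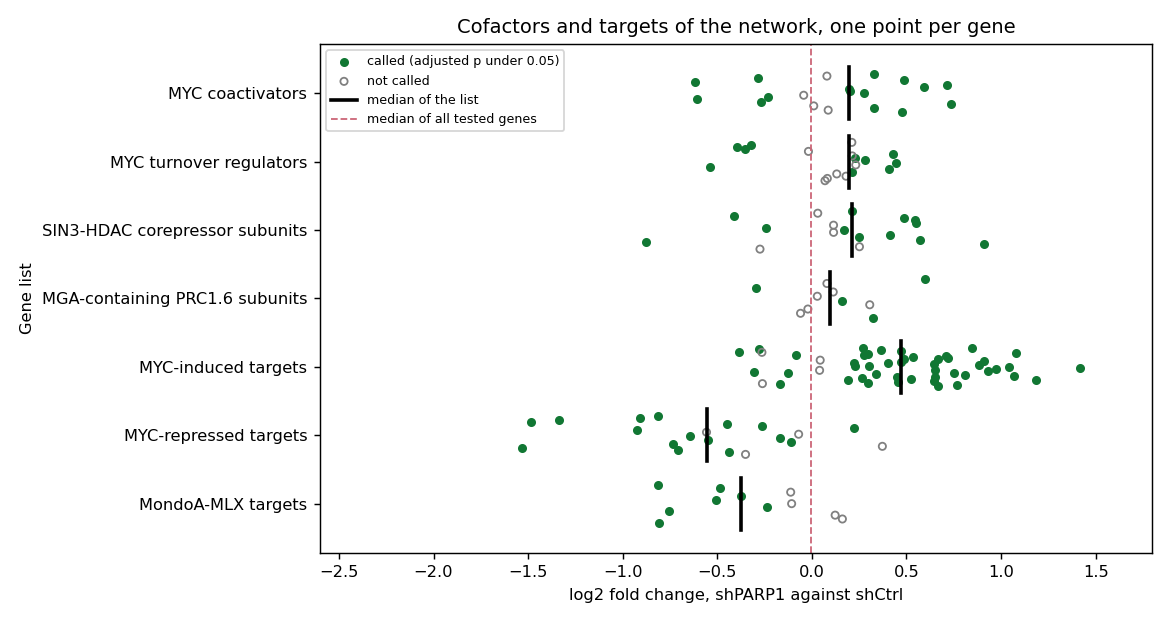
Log2 fold changes of cofactors and targets of the network, 1 point per tested gene; filled points were called at an adjusted p under 0.05, black lines are list medians and the dashed line is the median of all tested genes. MYC-induced targets lie to the right (median 0.47), and MYC-repressed (-0.55) and MondoA-MLX targets (-0.37) to the left.

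The list of 19 MYC coactivator genes also holds other partners of MYC, such as ZBTB17. Of these 19, 10 were called higher and 5 lower (median log2 fold change 0.19), beside 27.3% higher and 28.5% lower over all genes tested. The lower share was thus near that of all genes. The AAA+ ATPase gene RUVBL2 went from 264 ± 2.86 to 434 ± 2.03 CPM (SD, n = 3; log2 fold change 0.71), and its partner RUVBL1 (0.59), the elongation kinase gene CDK9 (0.73) and the SWI/SNF subunit gene SMARCB1 (0.49) rose. The 5 lower genes encode the scaffold TRRAP (-0.29), the ATPase EP400 (-0.23), the acetyltransferases EP300 (-0.61) and CREBBP (-0.27), and the ubiquitin ligase subunit SKP2 (-0.62). After the length and GC correction 13 were called higher and 2 lower, beside 29.2% and 27.1% over all genes tested. Regulators of MYC protein turnover showed 6 rises and 4 falls among 18 (median 0.20), near the 27.3% higher and 28.5% lower over all genes tested. After the length and GC correction 7 were called higher and 4 lower (median 0.18), beside 29.2% and 27.1% over all genes tested. With the correction for exon length alone, chosen after seeing the data, 10 rose and 4 fell. The ubiquitin ligase gene HUWE1 fell from 394 ± 7.69 to 272 ± 8.50 CPM (SD, n = 3; log2 fold change -0.54), and the deubiquitinase genes USP28 (-0.40) and USP36 (-0.32), known to stabilise MYC, and the ligase gene UBE4B (-0.35) fell too. GSK3B, the kinase that marks MYC for degradation, rose by 0.41, with STUB1 (0.43) and OTUB1 (0.44), while FBXW7, which encodes the ligase that reads this mark, was not called (0.13, edgeR adjusted p = 0.29). These are RNA levels, and MYC protein was not measured.

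The corepressor that MXD proteins and MNT recruit was higher for 9 of 17 SIN3-HDAC subunit genes and lower for 3 (median log2 fold change 0.21), beside 27.3% and 28.5% over all genes tested. After the length and GC correction 12 were called higher and 3 lower, beside 29.2% and 27.1% over all genes tested. The deacetylase gene HDAC1 went from 123 ± 3.07 to 183 ± 3.66 CPM (SD, n = 3; log2 fold change 0.57), and BRMS1 (0.91), SAP18 (0.55) and SAP30 (0.55) rose. The 3 lower genes were the scaffold SIN3A (-0.41), the histone chaperone RBBP7 (-0.24) and BRMS1L (-0.88), whereas the paralogous scaffold SIN3B was not called (0.03). Of 10 genes of the Polycomb complex that contains MGA, 3 were called higher and 1 lower, near or below the shares over all genes tested. CBX3 (0.33), YAF2 (0.60) and RING1 (0.16) rose and the E2F partner gene TFDP1 (-0.30) fell, and the complex-defining PCGF6 was not called, with 3.98 ± 0.767 CPM in shCtrl and 4.94 ± 0.154 CPM in shPARP1 (SD, n = 3).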

How the data were processed

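The members and gene lists were chosen with earlier results of these data known. Per the submitters' processing notes, GRCh38 was the build, and bcl2fastq, TopHat2 and edgeR are listed with neither version nor role. The sources used here name no counting tool, strand setting or annotation release. The authors deposited read counts per gene, not normalized, and FPKM values rounded to 2 decimals. The count test was run with edgeR 4.0.16 under R 4.3.3 (filterByExpr, TMM scaling, robust quasi-likelihood F test, two-sided, Benjamini-Hochberg adjusted over all 16040 genes tested, called under 0.05 with no minimum fold). SE was the absolute log2 fold change divided by the square root of F. FPKM served for levels between genes and, as log2(FPKM + 1) and log2(FPKM + 0.1), for alternatives in limma 3.58.1. DESeq2 1.42.0 was another alternative.

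Exon length, GC content and coordinates came from GENCODE release 29, matched by Ensembl identifier for 97.4% of the genes in the table and used for 99.2% of tested genes; natural splines of each library's deviation on both were entered as offsets. Start-site windows came from RefSeq and were matched by symbol. Named genes were PARP1, the 10 members, MYCL, MLXIPL and up to 4 called genes per list by smallest p-value; other list genes were named after their values were seen. The gene test was tested on simulated counts. Library pairs of a group differed by more than sampling noise (chi-square per degree of freedom 2.54 to 4.63), so that no library was merged with another as a duplicate; this does not show that they came from separate cultures. In limma on FPKM values, counting error is covered only through the spread between libraries. The edgeR count model also has a term for it.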

Additional observations from a re-analysis of the deposited data

How the results depend on the processing

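Alternatives were other scaling factors, other low-count filters, edgeR's likelihood-ratio test, DESeq2, limma-voom, limma-trend on FPKM, a replicate block, the exon length and GC correction, leaving out each library, and, chosen after seeing the data, counts thinned to the smallest total and correction for exon length or GC content alone. MYC was called lower in all 21, with log2 fold changes of -0.68 to -0.56, and so was MAX, at -0.26 to -0.16. With limma-trend on log2(FPKM + 1) and on log2(FPKM + 0.1), 4 members were called lower (MYC, MAX, MXD3 and MLXIP) and 3 MYC-induced targets. Over all 16040 genes tested, 3841 and 3831 were called lower in these settings, in that order. With the exon length and GC correction, 3 members were called lower and 1 higher, and MLXIP reversed to 0.027. In the lists, 2 genes of the coactivator list were called lower and 2 MYC-repressed targets higher. Over all genes tested with this correction, 27.1% were called lower and 29.2% higher. With exon length correction alone, 4 members were called lower (MYC, MAX, MXD3 and MXI1) and 1 higher (MGA). In the lists, 2 genes of the coactivator list and 2 MYC-induced targets were called lower, and 10 turnover regulators and 2 MYC-repressed targets higher. Of all 16040 genes tested, 4307 were called lower and 4575 higher in this setting. The count of MYC-repressed targets called higher was also 2 with GC correction alone, with library totals only and with the likelihood-ratio test, and 1 to 2 when a library was left out. Leaving out a library gave 5 to 7 members called lower, beside 4196 to 4416 of the 16198 to 16593 genes then tested. Replicate numbers in the titles did not pair the libraries: deviations of same-numbered libraries correlated at 0.036, -0.0042 and 0.036. With the replicate block 7 members were called lower and 0 higher, and 4443 genes higher and 4617 lower in all. At 3 to 4 CPM, as for MXD1, the interval was too wide to tell a fall of the size seen in the other MXD genes from none.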

Other observations

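Several members share exon bases with other genes, and the strand setting of the deposited counts is not known. MXD3 shares 926 exon bases with RAB24 on the same strand and 1158 with PRELID1 on the opposite strand. PRELID1 went from 207 ± 2.97 to 325 ± 1.21 CPM (SD, n = 3; log2 fold change 0.65), the direction opposite to that of MXD3, and RAB24 from 36.4 ± 3.95 to 32.9 ± 0.799 CPM (SD, n = 3; not called). MLX shares 770 exon bases with PSMC3IP on the opposite strand, which went from 13.3 ± 0.658 to 14.5 ± 0.393 CPM (SD, n = 3; not called). MXD1 shares 237 exon bases with SNRNP27 on the same strand, which went from 12.5 ± 0.862 to 19.1 ± 1.04 CPM (SD, n = 3; log2 fold change 0.61). On the opposite strand, MNT shares 1065 exon bases, MXI1 205 and MAX 184 with antisense genes, and MGA shares 510 with a lincRNA gene. MXD4 shares 80 with a microRNA gene on the same strand. The part of all these neighbours in the members' counts was not tested.

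Of the MYC-induced targets, 42 had RefSeq start-site windows and 21 of these held CACGTG, against 12.7% of all tested genes with a window. The median log2 fold change was 0.45 in the genes with the letters and 0.47 in those without. Of these, 19 and 16 were called higher, and 1 and 3 lower. Over all tested genes with and without the letters, 31.5% and 29.9% were called higher, and 32.3% and 31.3% lower. The difference between MYC-induced targets with and without the letters was not tested.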
